A study of Saccharomyces cerevisiae with 9 samples.

Results

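The RNAs described here carry the 5′ leaders and first codons of nuclear yeast genes for subunits of the respiratory chain and the ATP synthase. They were chosen by gene name from a list of 18 genes named on the Watson strand, taking each wild-type RNA of the pool whose name gives the gene and 1 number. Of the 18 genes, 14 were present in the deposited table, with 25 of its 4384 wild-type RNAs and of its 5762 RNAs in all. That table ends within an RNA, so a gene absent from it may still be in the pool. The ATP synthase was represented by 10 RNAs of ATP3 (YBR039W), ATP15 (YPL271W), ATP16 (YDL004W), ATP17 (YDR377W) and ATP20 (YPR020W). Cytochrome c oxidase, complex IV, had 6 RNAs of COX5A (YNL052W), COX5B (YIL111W) and COX13 (YGL191W). Complex III had 7 RNAs of QCR2 (YPR191W), QCR8 (YJL166W), QCR10 (YHR001W-A) and RIP1 (YEL024W), and complex II had 2 RNAs, of SDH3 (YKL141W) and SDH4 (YDR178W). ATP1, ATP2, COX6 and CYT1, which encode the α and β subunits of the ATP synthase, subunit VI of cytochrome c oxidase and cytochrome c1, had no wild-type RNA among those analysed. All 14 locus tags matched a symbol of the RefSeq gene table.

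Saccharomyces cerevisiae leaders were synthesised as a pool, transcribed in vitro with T7 RNA polymerase and probed with dimethyl sulphate (DMS), which methylates unpaired A and C. By the labels 9 libraries fall into 3 groups of 3 replicates. All 3 began with 2 min of heating to 95 °C. RNA of 1 group was then refolded and met DMS during 2 min at 30 °C, RNA of another met DMS in the denatured state, and RNA of the control group was refolded and kept at 30 °C with no DMS. The table's columns of coverage and mutations are named by replicate number and by no condition, so they were not used, and depth and reactivity are not analysed here. Every value below is a property of a pool sequence or of a structure predicted from it, with no library behind it, so no replicate error exists and no test was made. The RNA was made without a cell, so neither cap nor protein is part of these values.

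Respiration in yeast passes electrons from succinate dehydrogenase (complex II) and NADH dehydrogenases through ubiquinone, complex III and cytochrome c to complex IV, and the proton gradient so built drives the ATP synthase. Most subunits are encoded in the nucleus, translated in the cytosol and imported into mitochondria, many of them with an N-terminal presequence that is rich in basic and hydroxylated residues. The 5′ leader of their mRNAs is what the scanning ribosome meets first, and pairing in it or around the start codon, upstream AUGs and the bases just before the start codon are known to affect initiation.

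The start codon sites below show the last 15 bases of the leader, the start codon in capitals and 12 coding bases, in the DNA letters of the deposited table with replaced AUGs restored. They are shown for the highest and the lowest gene by predicted openness around the start codon (SDH4 and COX5A), for the oxygen-regulated pair COX5A and COX5B, and for the genes whose leader held an upstream AUG (COX13 and COX5B).
SDH4: cgctttataatagctATGatgttgccaaga
COX5A: aagaacgcatctacaATGttacgtaacact
COX5B: ttcattgtaaagagcATGtataacaaacac
COX13: acaaacaatagaaaaATGtttagacagtgt

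Each complete RNA had 182 nt: GGG from the T7 start, a 159-nt insert and a constant 20-nt end. The leader was read from the base after GGG to the lower-case ATG. A gene with several leaders was given their mean. Over the 14 respiratory genes the leader had a median length of 54.8 nt (SD 22.5, range 24 to 101), against 42 nt over the 2259 other genes compared (SD 25.2), leaders under 10 nt being left out. The leaders of 10 of the 14 genes were longer than the other genes' median, which 49.9% of the other genes were too. The spread among the respiratory genes exceeded the difference between the medians.

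Complex III leaders were all long. RIP1, which encodes the Rieske iron-sulphur protein, had leaders of 57, 68 and 100 nt, and QCR8, a small subunit next to the ubiquinone site, had leaders of 65 and 101 nt. QCR10, which encodes another small subunit, had 1 leader of 65 nt, and QCR2, which encodes a core protein, had 1 of 59 nt. All 4 gene means lay above the median of other genes, and the lowest, of QCR2, was longer than 70.7% of other genes.

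The 2 membrane anchor subunits of complex II lay far apart. SDH4 had a single leader of 101 nt, longer than in 95.7% of other genes, whereas SDH3 had a single leader of 26 nt, longer than in 19.8%. In cytochrome c oxidase, COX5A, the isoform of subunit V used with oxygen, had leaders of 18 and 30 nt. COX5B, the isoform used when oxygen is scarce, had 1 leader of 33 nt, and COX13, which encodes subunit VIa, had leaders of 19, 35 and 102 nt.

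ATP synthase leaders were of middle length. ATP3, the γ subunit of the central stalk, had leaders of 35, 69 and 86 nt, and ATP16, the δ subunit beside it, had 42 and 53 nt. ATP15, the ε subunit, had 1 leader of 29 nt. Of the membrane part, ATP17, subunit f, had leaders of 28, 66 and 79 nt, and ATP20, subunit g, which takes part in dimer formation, had 1 of 48 nt. Several leaders had been included for 7 of the 14 genes (50%), against 59.3% of other genes.

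In leader A content all gene means of complexes III and IV lay above the other genes' median, COX5B (39.4%) only just. Complex II varied most. The median A content over the 14 genes was 43.2% (SD 8.7) against 38.7% in other genes (SD 10.3), with 10 of 14 above the other genes' median. The difference between the medians was smaller than the spread among the genes, and it was 1.02 percentage points with the longest leader of each gene, against 4.49 with the mean. COX13 had the highest gene mean, 55.1% A, and its 19-nt leader, the A-rich end that all 3 of its leaders share, had 73.7%. Its 102-nt leader had 37.3%, below the other genes' median. RIP1 (48.3%), QCR10 (47.7%), QCR2 (44.1%) and QCR8 (43.6%) lay within 5 percentage points of each other.

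SDH4 was the opposite case, with 18.8% A and 44.6% U in its leader. Its U content was above that of 98.4% of other genes and its A content above that of 1.95%. SDH3, its partner in the membrane anchor, had 50.0% A and 19.2% U. The median U content over the 14 genes was 23.5% (SD 7.21) against 25.6% (SD 9.24), and the median GC content 33.2% (SD 4.73) against 35.1% (SD 8.23). No respiratory leader held a run of 5 or more U, against 13.1% of other genes, and for 0 of 14 genes the 95% Wilson interval reaches 21.5%. A run of 6 A was present in QCR2 alone (1 of 14 genes, 7.14%, against 11.8% of other genes), and none of the 14 held a run of 8 A (3.76% of other genes).

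Yeast start codons most often have A at the position 3 bases upstream, and 10 of the 14 genes had it (71.4%, 95% Wilson interval 45.4 to 88.3), against 61.6% of other genes (59.6 to 63.6). The intervals cover counting over genes only, and they overlap. Without COX5B and QCR10, whose RNAs hold intron-like letters described below, it was 9 of 12 genes (75%). G stood there in ATP3 and SDH4 and in 19.3% of other genes, and U in QCR2 and QCR10 and in 11.2% of other genes. The last 6 leader bases were GUAGUC in ATP3, AUAGCU in SDH4, ACGUUG in QCR2 and ACCUCA in QCR10. They were AGGAAA in ATP16, AGAAAA in COX13 and CAUAAA in ATP15.

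The base after the start codon was U in 9 of 14 genes (64.3%, Wilson interval 38.8 to 83.7), against 26.9% of other genes (25.1 to 28.7). With COX5B and QCR10 left out, U stood there in 8 of 12 genes (66.7%). In other genes G was there most often, in 30.8%, against 2 of the 14, QCR8 and QCR10. The second codon was UUA or UUG in ATP3, ATP16, COX5A, QCR2 and RIP1 and CUA in ATP20, all of which encode leucine. A leucine codon was thus second in 6 of 14 genes (42.9%, 21.4 to 67.4) and in 6.15% of 2259 other genes (5.23 to 7.22). This count was made after the values had been seen. Without COX5B and QCR10 it was 6 of 12 (50%). It was 1 of 4 for the other subunits listed, 2 of 7 for carriers and dehydrogenases, and 4 of 19 for assembly factors.

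The coding part, as far as the pool RNA carried it, was richer in U than most. Its median U content over the 14 genes was 30.3% (SD 3.88), against 26.7% in other genes (SD 6.4), and 12 of 14 lay above the other genes' median. The difference was smaller than the spread among the genes. In COX5B (36%) and QCR10 (32.9%) the stretch runs past an in-frame stop, and without them the median was 29.3% (SD 3.52), with 10 of 12 above. Of the other genes of the set ATP17 (35.1%) was highest, and ATP3 (24.7%) and QCR8 (21.2%) were the genes below the other genes' median. The median A content was 29.2% (SD 3.05), against 31.9% (SD 6.46), and the median GC content was 40% (SD 5.24), against 41% (SD 5.65). SDH4, the gene with the least A in its leader, had the most A in its coding part, 34.9%. The U content of the coding part was not particular to these genes. Its median was 31.5% over 4 other subunits listed, with 3 above the other genes' median. It was 29.2% over 7 carriers and dehydrogenases, with 4 above, and 27.3% over 19 assembly factors, with 11 above.

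Codons for arginine, the basic residue of many presequences, numbered 1.36 (SD 1.01) per respiratory gene in the first 14 codons after the start codon, against 0.788 (SD 0.983) over 2194 other genes with as many codons. The 14 triplets run past an in-frame stop in COX5B and QCR10, and without these genes the mean was 1.5 (SD 1). COX5A and SDH4 had the most, 3 each, while SDH3 and QCR8 had none. Assembly factors and carriers and dehydrogenases lay as high, with means of 1.76 (SD 1.09) over 17 genes and 1.57 (SD 1.27) over 7. The mean over 4 other subunits was lower, 1 (SD 0.816). The counts overlapped widely with those of other genes, of which 20.1% had 2 or more, against 6 of the 14. They were counted after the sequences had been seen, and the mature N-termini of these proteins are not given in the table.

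AUGs after the start codon, which the pool carries as AGU, followed closest in the complex II genes. In SDH4 the second codon is itself an AUG. In SDH3 a pair of adjacent in-frame AUGs follows 9 and 12 nt after the first base of the start codon. Their first coding bases as deposited, with the start codon and each AGT in capitals, show this.
SDH4: ATGAGTttgccaagatccAGTaaa
SDH3: ATGtctgcaAGTAGTgtcaagtta
In ATP3, COX13 and QCR10 the first such codon lay 25 nt after the first base of the start codon and out of its frame. In QCR8 it lay 27 nt after that base and in RIP1 42 nt, in frame in both.

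In COX5B and QCR10 the open frame after the lower-case ATG was short. Both genes are known to have an intron close to the start codon, but no annotation of introns was used here, and where the intron lies in these RNAs was not determined. Whether the lower-case ATG of COX5B lies within it was not determined either. In the sequences below the start codon and a stop codon in its frame are in capitals for COX5B, and for QCR10 the first 30 of 36 bases are shown, ahead of the stop.
COX5B: ATGtataacaaacacTGA
QCR10: ATGgcggtaagtatcctatcatattatgtg
The stop followed after 4 codons in COX5B and 10 in QCR10, the start codon not counted. Of the 2356 other genes with a wild-type RNA, 5.69% had an in-frame stop in the stretch read.

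Both RNAs also held TACTAAC, the branch site sequence of yeast introns, 49 nt after the first base of the start codon. It is in capitals below.
COX5B: gatatccattTACTAACattcgaggtg
QCR10: cgaattagtaTACTAACatttataata
This motif, searched on the RNA strand alone, was found after the start codon in 2 of the 14 genes (14.3%) and in 1.7% of the 2356 others, and it occurred together with an in-frame stop in 1.27% of the others. A match is a description of the letters and not a mapped branch point.

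For COX5B the lower-case ATG was also not where the RNA's name puts the start. In 24 of the 25 respiratory RNAs the number in the name was the leader length plus 1, whereas the COX5B name gives 31 and the leader measured 33 nt. The first 24 coding bases of COX5A after its ATG matched COX5B best at a stretch that starts 88 nt after the first base of the lower-case ATG, with 16 of 24 identical (66.7%). The next best ungapped position had 13. The stretches are shown so that the likeness of the paralogues can be read, with the start codon of COX5A in capitals and 3 more bases ahead of the COX5B stretch.
COX5A: ATGttacgtaacacttttactagagct
COX5B: gtgttgcgtacttctcttactaaaggg
The values for the leader and start codon of COX5B, above and below, therefore belong to the ATG of the pool RNA. They do not belong to a known start of the protein.

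Upstream AUGs were present in COX5B and COX13, and the wild-type RNAs carry them as AGU. Such a codon was found in 2 of the 14 genes (14.3%, Wilson interval 4.01 to 39.9), against 15.6% of other genes (14.2 to 17.2). The sites are shown with the AUG restored and with it and its stop codon in capitals.
COX5B: ATGgaaTAAcgc
COX13: actacacatcgcATGtgttttatcTAGatt
In COX5B the upstream AUG is the first codon of the leader, 33 nt before the lower-case ATG. With the upstream AUG counted, as for COX13 below, the frame closes after 2 codons, which leaves 24 nt to the ATG. In COX13 it lay 71 nt before the start codon, in another frame, with C at the third base before it, and its frame closed after 4 codons, 56 nt before the start codon. It is part of the 102-nt leader alone, and the 19- and 35-nt leaders of COX13 start downstream of it. In the variant RNAs, which keep the upstream AUG, the predicted unpaired probability around it was 0.408 in COX5B, against 0.409 in the wild-type RNA, and 0.455 in COX13, against 0.595. The variants differ from the wild-type RNAs in the start codon, which they carry as AGU, and in the last insert bases too.

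Predicted pairing was computed for the complete RNA at 30 °C, as the mean probability that a base is unpaired. Over the leader the 14 genes had a median of 0.488 (SD 0.0822, range 0.365 to 0.63), against 0.481 in other genes (SD 0.111), with 8 of 14 above the other genes' median. The difference of 0.00621 was far within the spread among the genes, and it turned to -0.0258 when the share of unpaired bases in the minimum free energy structure was taken instead. Among these genes A content and leader openness showed a Pearson correlation of 0.031 and a Spearman correlation of 0.32 over 14 genes. Over the 2259 other genes these were 0.52 and 0.49. Both measures come from the same sequences.

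Leader openness differed in level between the complexes. SDH3 had 0.63 and SDH4 0.593, and the complex III genes QCR10, QCR8, RIP1 and QCR2 had 0.595, 0.581, 0.544 and 0.535, so all 6 genes lay above every ATP synthase and cytochrome c oxidase gene. The ATP synthase genes ran from 0.41 in ATP20 and 0.419 in ATP3 and ATP17 to 0.482 in ATP16 and 0.493 in ATP15. COX5A had 0.461, COX13 0.455 and COX5B 0.365, the lowest of the 14. These are 2 to 5 genes a complex, and the order was noticed in the data. It depends on the fold: at 37 °C ATP15 (0.56) lay above QCR2 (0.557), and with the part copied from the gene folded alone COX13 (0.617) lay above QCR10 (0.599), QCR8 (0.581) and RIP1 (0.579). SDH4 reached this openness with the lowest A content of the 14 genes and SDH3 with the second highest.

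Around the start codon, in the codon and 10 nt on each side, the median was 0.45 (SD 0.0847, range 0.366 to 0.634), against 0.476 in other genes (SD 0.113), with 6 of 14 above the other genes' median. Without COX5B and QCR10 the median was 0.458. SDH4 (0.634) and SDH3 (0.624) were above 92.4% and 91.3% of other genes. The next genes were RIP1 with 0.51, ATP15 with 0.506, ATP17 with 0.488, ATP16 with 0.482 and QCR10 with 0.466. QCR2 had 0.435, COX13 0.43, ATP3 0.418 and COX5B 0.398. QCR8 (0.375), ATP20 (0.374) and COX5A (0.366) were lowest, above 18.7%, 18.3% and 17.2% of other genes, and these 3 differed little. This order depends on the fold too. With the gene's part folded alone ATP20 had 0.59, between SDH3 (0.622) and SDH4 (0.547). The RNAs of COX5A then had 0.366 and 0.276, and those of QCR8 0.292 and 0.393. At 37 °C SDH3 (0.669) lay above SDH4 (0.658).

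Openness of the leader and around the start codon showed a Pearson correlation of 0.6 and a Spearman correlation of 0.58 over the 14 genes. Over the 2259 other genes these were 0.47 and 0.46. The measures overlap, since the window includes 10 leader bases. They did not go together in every gene. QCR8 had a leader more open than in 81.2% of other genes beside a start codon region more paired than in most. In its 65-nt leader RNA 60.9% of the window was predicted to pair with the leader, GGG included. In its 101-nt leader RNA it was 40.6% with the leader, GGG included, and 23.1% with the coding part. In COX5A the window paired with the coding part instead, 62.9% and 50.8% of it in the RNAs with 18 and 30 leader bases, and its AUG itself was unpaired with a probability of 0.106 and 0.19. ATP20 (56.2%), COX5B (56.5%) and the 35-nt RNA of ATP3 (57.4%) likewise paired the window with coding bases.

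The AUG was most open in ATP17, the subunit f gene, with an unpaired probability of 0.941, 0.798 and 0.756 in the RNAs with leaders of 28, 66 and 79 nt. ATP16 followed with 0.774 and 0.751 for leaders of 42 and 53 nt. The lowest value was 0.0936, in the 102-nt RNA of COX13, whose other RNAs had 0.365 and 0.439 with 19 and 35 leader bases. The median over the 14 genes was 0.408 (SD 0.196), against 0.406 in other genes (SD 0.239).

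The predicted folding energy of the whole RNA had a median of -44.6 kcal/mol (SD 6.56), against -46.1 kcal/mol in other genes (SD 6.81). SDH3 was the most stable at -60.9 kcal/mol, lower than all but 2.04% of other genes, while its leader and start codon were among the most open of the 14. By gene mean QCR10 was the least stable, at -32.1 kcal/mol. Without COX5B and QCR10 the median was -45.1 kcal/mol. COX13 had -46, -38 and -31.2 kcal/mol in the RNAs with 19, 35 and 102 leader bases, and RIP1 -41.4, -37.4 and -33.3 kcal/mol with 57, 68 and 100. In these RNAs a longer leader takes the place of coding bases, since the insert has a fixed length.

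Leaders of 1 gene were nested: in all 15 pairs the shorter leader was the exact end of the longer one, and the coding parts were identical up to the last 11 or 12 insert bases. These last bases are particular to each RNA and do not continue the gene. Between the longest and the shortest leader of a gene, predicted openness around the start codon changed by a median size of 0.0239 over 7 genes, against 0.0441 over 1185 other genes. It was higher with the longest leader in 2 genes and lower in 5. Over the leader itself it changed by a median size of 0.111, against 0.0649 in other genes, again higher in 2 and lower in 5.

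In 3 of the 7 genes the sign of the leader difference turned when the construct's own ends were left out of the fold. These were COX13 and COX5A, the genes with a higher value in the longest leader, and ATP16, whose difference was small in both folds (-0.0162 in the whole RNA and 0.00249 with the gene's part alone). Around the start codon the sign turned in ATP3, ATP16, COX5A, COX13 and QCR8, and it stayed negative in ATP17 and RIP1. The leader of COX13 had an unpaired probability of 0.5 with 102 nt, 0.542 with 35 nt and 0.323 with 19 nt. In the RNA with 19 leader bases, 67.5% of the leader was predicted to pair with the last 12 insert bases and the constant end. With the part copied from the gene folded alone the values were 0.514, 0.463 and 0.873, so the shortest leader, with 73.7% A, was then the most open. COX5A had 0.599 with 30 nt and 0.323 with 18 nt in the whole RNA, and 0.415 and 0.585 with the gene's part alone.

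In RIP1 and QCR8 the shortest leader was the most open in both folds. The leader of RIP1 had an unpaired probability of 0.494 with 100 nt, 0.48 with 68 nt and 0.658 with 57 nt, and with the gene's part alone 0.535, 0.538 and 0.665. Its other leaders, of 100 and 68 nt, differed little in both. In QCR8 the leader had 0.526 with 101 nt and 0.637 with 65 nt, and 0.519 and 0.642 with the gene's part alone. Leaders of ATP16 had 0.474 with 53 nt and 0.49 with 42 nt, and 0.485 and 0.482 with the gene's part alone. Those of ATP17 had 0.403, 0.446 and 0.409 with 79, 66 and 28 nt, and 0.407, 0.436 and 0.451 with the gene's part alone.

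The last 12 insert bases and the constant end also took part in the pairing of the leader of QCR2, ATP15 and the shortest ATP3. They paired with 31.5% of the QCR2 leader, 36.6% of the ATP15 leader and 28.6% of the 35-nt ATP3 leader. With the gene's part alone these leaders had unpaired probabilities of 0.68, 0.508 and 0.56, against 0.535, 0.493 and 0.41 in the whole RNA. In SDH4 (1.47%), SDH3 and COX5B these bases paired with little of the leader. The values with the gene's part alone were 0.629, 0.686 and 0.338, against 0.593, 0.63 and 0.365 in the whole RNA. In ATP20 these bases paired with 0.476% of the leader. Its value was nevertheless 0.539 with the gene's part alone, against 0.41 in the whole RNA. Pairing with GGG is outside these percentages, and the fold of the gene's part alone leaves out GGG too.

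Other genes of respiration were described by lists, with presence counted in the deposited table, which may not hold the whole pool. Of 19 other subunits, mostly Crick-strand genes, 4 were present, with leader openness from 0.36 in TIM11 to 0.532 in ATP19, which encode small subunits of the ATP synthase, and 1 of 4 above the other genes' median. Of 19 carriers and dehydrogenases 7 were present, from 0.343 in COQ8, a ubiquinone synthesis gene with 18.3% A in its leader, to 0.832 in CYC1, the cytochrome c gene, with 51.1% A and 4 of 7 above the median. CYC1 thus lay above all 14 respiratory genes. Of 44 assembly factors 19 had a leader of at least 10 nt, from 0.317 in COX16, which acts on cytochrome c oxidase, to 0.7 in SDH6, which acts on complex II, with 10 of 19 above the median. Median leader A content was 37.7%, 36.1% and 36.8% in these lists in the same order, against 38.7% in other genes, which include the lists.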

How the data were processed

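The labels describe 9 DMS probing libraries of a synthetic RNA pool. Per the submitters' processing notes, STAR and SAMtools were used, and neither their versions nor a genome build could be read from the sources used here. The authors deposited 1 table with a reference base per position of each RNA. Its 6 columns of coverage and mutation rate are numbered by replicate but name no condition, so they were left aside. Each sequence was assembled from its base letters in the order of the rows. The table ends after 1048575 positions, within its last RNA, a wild-type RNA of another gene, which was left out. Further RNAs of the pool may therefore be missing from the table.

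Leaders, composition, codons and motifs were read from the sequences with Python 3.11.15. Coding features leave out the last 12 insert bases. RNAs were folded with ViennaRNA 2.7.2 at 30 °C, and values of several leaders of at least 10 nt were averaged per gene. "Other genes" are all genes outside the list of 18. Of the 2259 compared, 2147 are named on the Watson strand. Gene symbols came from RefSeq assembly R64. The functions recovered leader length, A content, upstream AUGs, the base 3 upstream and the first stop codon in 200 of 200 simulated RNAs. They placed 40 of 40 simulated hairpins over or before the start codon. These hairpins had stems of G and C in mostly A RNA, unlike the mixed pool RNAs. Arginine codons, AUGs after the start codon, TACTAAC and shares of pairing were not simulated. All 14 genes present are named, and in each other list the highest and lowest by leader openness and CYC1. The members and lists were chosen with earlier results of these data known. Leucine and arginine codons, intron-like letters and the fold of the gene's part alone were examined after seeing the data. Wilson intervals are at 95% and treat genes as independent. No test over genes was made. A further count over the coding part is not reported here.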

Additional observations from a re-analysis of the deposited data

How the results depend on the processing

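All 76 alternatives to 11 results moved the value by less than its spread, and in 74 its sign was unchanged. The value was the difference between respiratory and other genes or, for alternative leaders, between the longest and the shortest leader of a gene. The spread was the SD among the respiratory genes or, for shares, the distance to the nearer Wilson limit. For every result this spread was larger than the value itself, so a difference could vanish and still move by less. The count of 76 is therefore no measure of robustness. For leader A content the difference was 4.49 as reported and 1.02 with the longest leader of each gene. For leader U content these were -2.09 and -0.136. The alternatives were other choices of leader, length limit and comparison genes, folding at 37 °C, folding with upstream AUGs restored or without the ends, other windows and, chosen after seeing the data, leaving out COX5B and QCR10. The 2 turns were the leader openness read from the minimum free energy structure (-0.0258, against 0.00621) and the openness around the start codon with the gene's part folded alone (0.00228, against -0.0257), which was chosen after seeing the data, and the cause was not tested. No paired analysis was possible because the columns carry no condition, and for the same reason no replicate was left out. The depth of the libraries is not analysed here.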

Other observations

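ATP16 and COX5A, of different complexes, share the first 9 coding bases, ATGttacgt, which no other gene of the 2259 compared has. ATP3 and QCR2 share ATGttgtca, which 1 other gene has. These pairs were found by comparing the coding starts of all 14 genes, and no test was made.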
